A study of Mus musculus with 9 samples.

Results

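The comparison described here set a knockdown of Fkbp5 against a knockdown of its close relative Fkbp4 in differentiating mouse myoblasts, gene by gene. It compared 6 of the 9 libraries of the series, 3 from each knockdown, chosen by their labels. The cells were C2C12 (CSC12 in the sample titles), an established mouse myoblast line that stops dividing and fuses into multinucleated myotubes when serum growth factors are withdrawn. Cells of each genotype were collected at days 0, 3 and 5 of differentiation, and there was 1 library for each genotype and day. The other 3 libraries were controls of the same days, and are given here as the level from which either knockdown could depart. The controls also entered the statistical fit, where they added to the estimates of the spread and of the day effect only. All genotypes were grown in DMEM with 10% fetal bovine serum, moved at day 0 to medium with 1% insulin-transferrin-selenium, and then, per the labels, kept in DMEM with HS that was renewed every other day. The labels do not say by which reagent the genes were knocked down, what the control cells received, or whether a genotype was 1 culture or clone followed over time.

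Fkbp4 and Fkbp5 encode immunophilins, which are peptidyl-prolyl isomerases that bind the drug FK506 and dock onto the chaperone Hsp90 through tetratricopeptide repeats. They are best known in steroid receptor complexes, where Fkbp5 lowers hormone binding by the glucocorticoid receptor and Fkbp4 takes its place when the receptor moves into the nucleus. The series title links Fkbp5 to myoblast differentiation through Cdk4, a kinase that drives cells from G1 into S phase and that is opposed by Cdk inhibitors such as Cdkn1a when myoblasts leave the cell cycle. Setting the knockdowns against each other asks which transcripts part when one immunophilin or the other is depleted.

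The 6 libraries held 3932372 to 5568486 reads on genes. A gene without a read in a library may have reached 3 reads, which is 0.530 to 0.788 CPM, a unit in which reads are scaled to a common normalised library total. This limit covers counting error only. All 10 myoblast and myotube markers checked had a mean over 5 CPM, none of 5 immune and 4 endothelial markers did, and of these 3 immune markers and 1 endothelial marker had no read in any of the 6 libraries. The library of the Fkbp5 knockdown at day 5 stood apart: mitochondrially encoded genes took 10.1% of its reads, against 1.78% to 5.01% in the other 8 libraries. It is called the outlying library, and counts of called genes are given with and without it.

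Each knockdown library was low in its own target. Fkbp4 (chr6:128429735-128438677, minus strand, GRCm38) stood at 60.1, 27.1 and 24 CPM at days 0, 3 and 5 of the Fkbp4 knockdown and at 254, 146 and 143 CPM in the Fkbp5 knockdown, beside 240.4, 143 and 138 CPM in the control. Fkbp5 (chr17:28399094-28517527, minus strand) stood at 24.4, 7.78 and 16 CPM in the Fkbp4 knockdown and at 4.46, 3.18 and 4.6 CPM in the Fkbp5 knockdown, beside 20.1, 7.34 and 14.7 CPM in the control. For each target, all 3 libraries of its own knockdown lay below the 6 others, and the level of the gene that was not targeted lay close to the control. Between the knockdowns Fkbp4 differed 5.06-fold (log2 difference 2.34, SE 0.12, adjusted p = 7.89e-06) and Fkbp5 3.71-fold (log2 difference −1.89, SE 0.23, adjusted p = 0.00116). A log2 difference is always the Fkbp5 knockdown minus the Fkbp4 knockdown, so negative values are lower in the Fkbp5 knockdown. It is the difference common to the 3 days, and its adjusted p is from edgeR's quasi-likelihood test with Benjamini-Hochberg adjustment over all genes.

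**Figure D1:**
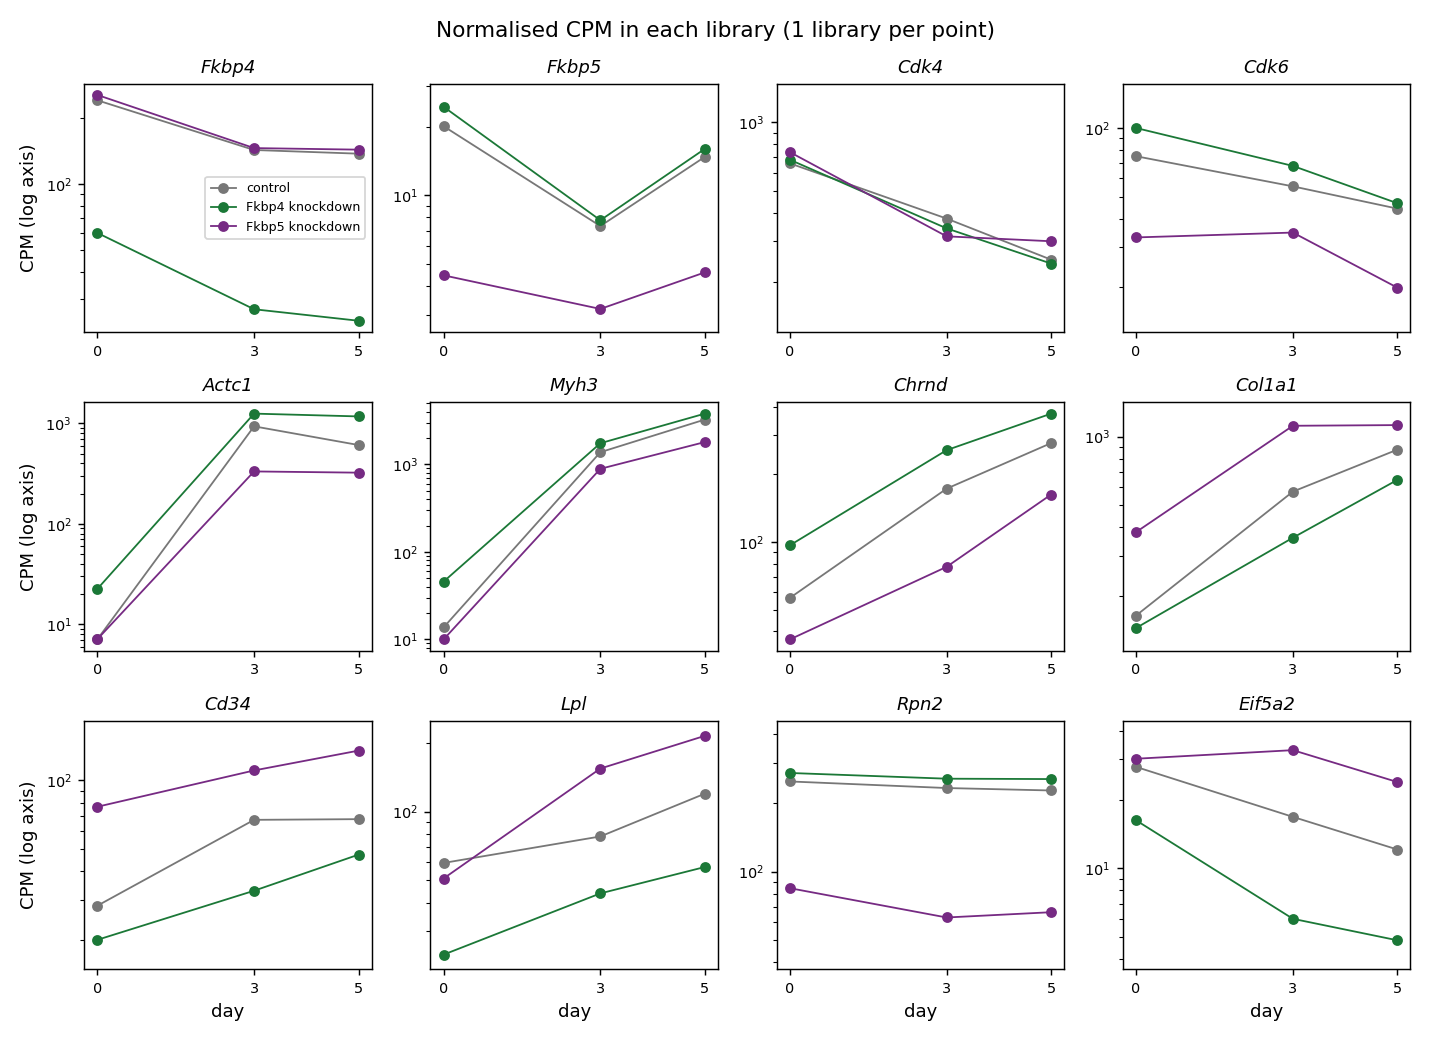
Normalised CPM (log axis) against day for 12 genes, with 1 point per library and lines joining the days of a genotype. Fkbp4 and Fkbp5 are low in their own knockdown, Actc1, Myh3, Chrnd, Cdk6 and Rpn2 are lower in all 3 libraries of the Fkbp5 knockdown than in the same-day library of the Fkbp4 knockdown, Col1a1, Cd34, Lpl and Eif5a2 are higher, and the Cdk4 lines cross.

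Of 12844 genes tested, 1650 (12.8%) passed an adjusted p of 0.05 and are called different: 877 (6.83%) were higher in the Fkbp5 knockdown and 773 (6.02%) were lower. A difference of at least 2-fold was seen in 153 of the higher and 174 of the lower genes. Without the outlying library, the Fkbp5 knockdown of day 5, 254 of 12746 genes were called higher (1.99%) and 233 lower (1.83%). Leaving out the Fkbp4 knockdown of day 5 instead gave 539 called genes, beside 487 without the outlying library, so a loss of this kind was not particular to that library. Of 147 called genes chosen by the naming rule, 72 passed without the outlying library too. Where a gene printed with its standard error (SE) did not, the adjusted p without that library stands beside it. With no replicate at any day, the 3 days stood in for replicates: the test sets the difference common to the days against the departures from it, so differences that turn with the day are missed. In the following, 3 values in a row are those of days 0, 3 and 5, and where values stand against each other those of the Fkbp4 knockdown come first.

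Among 10899 genes with a mean of at least 5 CPM over the 6 libraries, 5362 (49.2%) had the same sign in all 3 same-day pairs, and 1535 (14.1%) had the same sign and were called, 821 of them higher and 714 lower. A further 28 genes of that abundance were called without the same sign on each day. Just inside the 5 CPM limit lay Ctla2a at a mean of 5.03 CPM, and just outside it Fam69b at 4.87 CPM. Across genes, the difference at day 0 had a Pearson correlation of 0.28 with that at day 3 and of 0.38 with that at day 5, and days 3 and 5 had 0.43. These are descriptions over genes, which are not independent replicates. The control mean lay between the knockdown means for 1307 of the 1535 genes (85.1%), against 47.9% of all genes of that abundance. Genes chosen for a wide gap leave more room for the control, so the first share is partly set by the choice.

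The genes with the largest differences were taken from the called protein-coding genes of the nuclear genome that averaged 5 CPM or more and kept 1 sign over the 3 days, 12 in each direction. The largest difference downward among these was in Myh4, the fast IIb myosin heavy chain, with 0.2, 14.9 and 368 CPM in the Fkbp4 knockdown and 0, 2.04 and 19.9 CPM in the Fkbp5 knockdown, so that the knockdowns parted mainly at day 5 (16-fold; log2 difference −4.00, SE 0.25, adjusted p = 2.97e-05). Its day 0 values rest on 1 read and 0 reads, and 30.4% of its 31-base words also occur in other genes, so reads may be split with them. Without the outlying library its log2 difference was −2.85. Wnt7b, a secreted Wnt ligand, was 8.29-fold lower with 31.7, 4.77 and 5.05 CPM in the Fkbp4 knockdown and 4.99, 0.454 and 0.219 CPM in the Fkbp5 knockdown (log2 difference −3.05, SE 0.35, adjusted p = 8.50e-04). The ligand was high at day 0 in the Fkbp4 knockdown and lower at every day in the Fkbp5 knockdown. Its Fkbp5 knockdown values rest on 19, 2 and 1 reads, so the size of the difference at days 3 and 5 is uncertain. Myo7b, an unconventional myosin of microvilli, was 13-fold lower, with 38.5, 2.3 and 5.68 CPM in the Fkbp4 knockdown and 2.1, 0.454 and 0.657 CPM in the Fkbp5 knockdown (log2 difference −3.70, adjusted p = 0.00176). Galnt6, which starts O-linked glycosylation, had 2.6, 20.2 and 26.3 CPM in the Fkbp4 knockdown and 0.788, 2.04 and 4.16 CPM in the Fkbp5 knockdown (−2.80, SE 0.31). The others of the 12 genes with the largest differences downward were Cdkn1c, Myh7, BC025446, the cell adhesion molecule Nrcam, Myh8, Gbp9, Alg10b and Fkbp5 itself, with log2 differences from −2.64 to −1.89.

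Upward, Ifi27l2a, an interferon-induced gene, was 8.61-fold higher with 0.2, 2.3 and 1.05 CPM in the Fkbp4 knockdown and 1.31, 20.4 and 10.5 CPM in the Fkbp5 knockdown (log2 difference 3.11, SE 0.34, adjusted p = 7.92e-04). At day 0 it rests on 1 and 5 reads, so the separation is of days 3 and 5. Cd34, a sialomucin carried by quiescent satellite cells and other progenitors, was 3.3-fold higher with 20, 32.9 and 47.3 CPM in the Fkbp4 knockdown and 76.7, 111 and 135 CPM in the Fkbp5 knockdown (log2 difference 1.72, SE 0.14, adjusted p = 1.79e-04). All 3 of its Fkbp5 knockdown libraries lay above all 3 of the Fkbp4 knockdown and above the control at 28.3, 67.2 and 67.7 CPM. Eif5a2, a paralog of the translation factor Eif5a, had 16.2, 6.01 and 4.84 CPM in the Fkbp4 knockdown and 30.2, 32.9 and 23.9 CPM in the Fkbp5 knockdown, a 3.49-fold difference (1.8, SE 0.26). Hmgn2, a nucleosome-binding protein, had the largest fitted value of the 12 (3.13, SE 0.61, adjusted p = 0.0682 without the outlying library), but 29.8% of its words occur in other genes, and its control ran from 14.7 to 50.7 CPM. Gm12248, Apol6, Akr1c14, Ctrb1, Stmn4, Dram1, Lgr6 and Fkbp4 itself made up the rest of the 12, with log2 differences from 1.70 to 2.34.

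**Figure D2:**
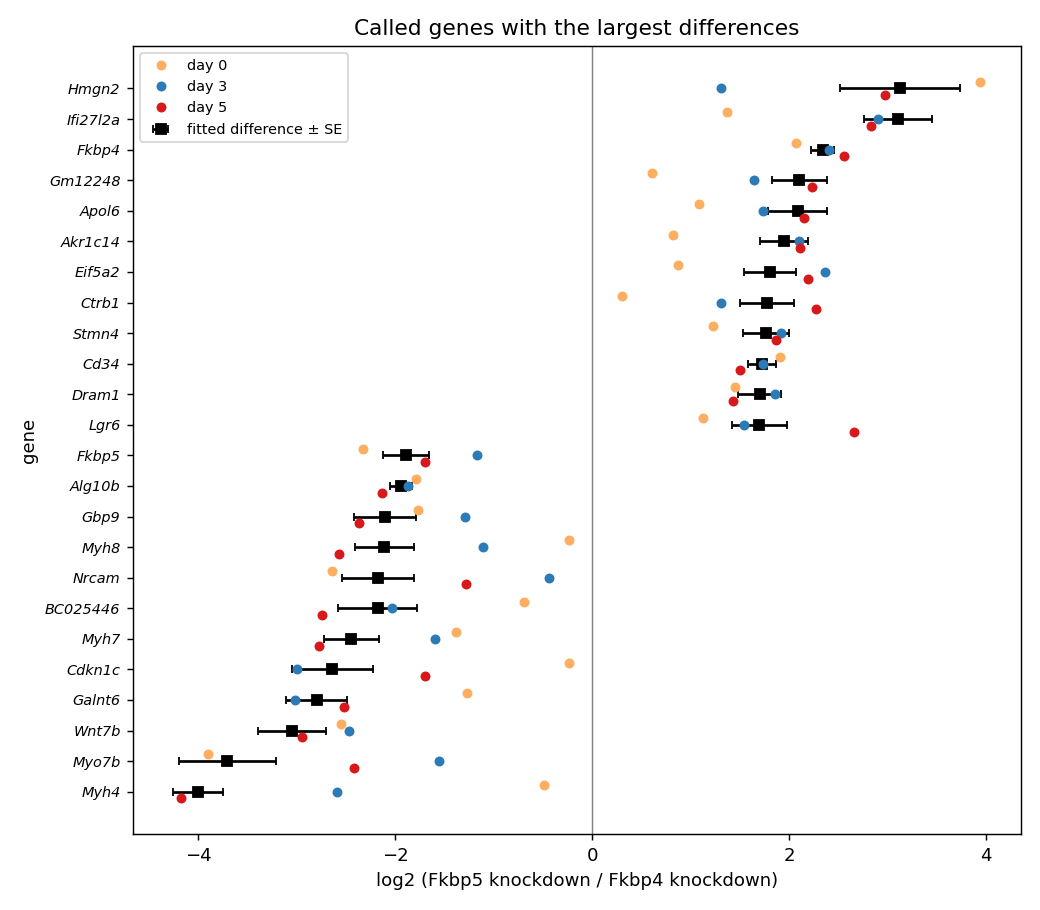
Fitted log2 difference (Fkbp5 knockdown over Fkbp4 knockdown, black squares, bars ± SE) and the 3 same-day log2 ratios (coloured points, 0.5 CPM added to each level) of 12 called genes in each direction, those with the largest difference among nuclear protein-coding genes that averaged 5 CPM or more and kept 1 sign over the days. Every point lies on the side of its square, but the day 0 points of Myh4, Myh8 and Cdkn1c, which rest on few reads, lie near 0.

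Some genes differed by nearly the same amount at every day. Rpn2 (chr2:157279017-157326319, plus strand), a subunit of the oligosaccharyltransferase that attaches sugar chains to proteins in the endoplasmic reticulum, stood at 270.3, 255 and 254 CPM in the Fkbp4 knockdown and at 84.6, 62.9 and 66.4 CPM in the Fkbp5 knockdown (log2 difference −1.87, SE 0.10, adjusted p = 1.06e-05). Alg10b (chr15:90224311-90233471, plus strand), which adds the last glucose to the sugar chain before its transfer, stood at 103, 94.9 and 89.2 CPM against 29.4, 25.7 and 19.9 CPM (log2 difference −1.94, SE 0.11, adjusted p = 1.57e-05). In both genes the control, at 248, 232 and 227 CPM for Rpn2 and 83.7, 72.2 and 75.7 CPM for Alg10b, lay near the Fkbp4 knockdown. Magt1, another subunit of the oligosaccharyltransferase, was 1.85-fold lower (−0.88, SE 0.09) and Man1a, a mannosidase that trims the chain in the Golgi, 1.67-fold lower (−0.74). Among the 40 genes of N-glycosylation tested, 4 were lower and 4 higher, the latter including Alg5 (0.56) and Tusc3 (0.54), and the median was 0.11, against −0.01 over all genes tested. Without the outlying library, 3 members were lower and none was higher.

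The 3′ untranslated regions (3′ UTR) of genes with a mean of at least 5 CPM were searched for 7-base words, on the sense strand, in 10233 genes with an annotated 3′ UTR. Words were ranked by the shift of the mean log2 difference of their holders over its standard error, not by the size of the shift. Of 15470 words found in at least 100 genes, GTTCGTT ranked first toward lower levels in the Fkbp5 knockdown, and GCTATGC first the other way. The sites printed are a selection from genes with large differences in the direction of their word. Not all such genes or sites are shown. Some genes that hold a word and moved the other way are named below, without their sites. The word is in capitals inside 21 bases of the sense strand from GENCODE M21 transcripts (GRCm38). The first 4 hold the lower-side word, and the next 3 the higher-side word.
Rpn2, chr2:157325831-157325851, plus strand: gatgcctGTTCGTTaaaaaga
Alg10b, chr15:90231691-90231711, plus strand: aagcattGTTCGTTatccatt
Alg10b, chr15:90232363-90232383, plus strand: aattattGTTCGTTgttcacg
Cdk6, chr5:3520982-3521002, plus strand: gctttatGTTCGTTtgtacac
Eif5a2, chr3:28798386-28798406, plus strand: cgctgtgGCTATGCtcgtcct
Sod3, chr5:52369643-52369663, plus strand: attaattGCTATGCctttttg
Jam2, chr16:84825012-84825032, plus strand: aaaaataGCTATGCacagctc

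The lower-side word was in the 3′ UTR of 239 genes (2.34%). Their median log2 difference was −0.33, against −0.02 for the other genes, and it was −0.41, −0.29 and −0.31 at days 0, 3 and 5. Among holders, 89 (37.2%) were called lower and 9 (3.77%) higher, against 6.30% and 7.69% of the genes without the word. Set against the control, the median of the holders was −0.29 in the Fkbp5 knockdown and −0.00 in the Fkbp4 knockdown. The higher-side word was in 621 genes (6.07%), with a median of 0.08 against −0.03 for the others. Of these, 107 (17.2%) were called higher and 36 (5.80%) lower, against 6.98% and 7.11% of the others, and against the control their median was −0.10 for the Fkbp4 knockdown and −0.04 for the Fkbp5 knockdown. A word is no rule for single genes: the acetylcholine receptor subunit Chrnd, the transcription factor E2f2, Gbp8 and the Wnt modulator Dkk3 hold the higher-side word and were lower.

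Both words also occur in the targeted transcripts, outside their 3′ UTR. The Fkbp5 transcript, of 3858 bases, holds the lower-side word 1 time, from base 1098 and before its 3′ UTR, and the Fkbp4 transcript, of 2217 bases, holds the higher-side word 2 times, first from base 646. The Fkbp5 transcript holds no higher-side word and the Fkbp4 transcript no lower-side word. Anywhere in the transcript, the lower-side word is found in 4.76% and the higher-side word in 15.1% of 11433 genes tested. The words were picked on these differences, so the shifts carry no test, and a link to the knockdown reagents was not tested. The second site in Fkbp4, from base 838, spans an exon junction and is not printed; the other sites in the targets read as follows.
Fkbp5, chr17:28415960-28415980, minus strand: atgtggtGTTCGTTgttgggg
Fkbp4, chr6:128434774-128434794, minus strand: ggtgaagGCTATGCcaggccc

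**Figure D3:**
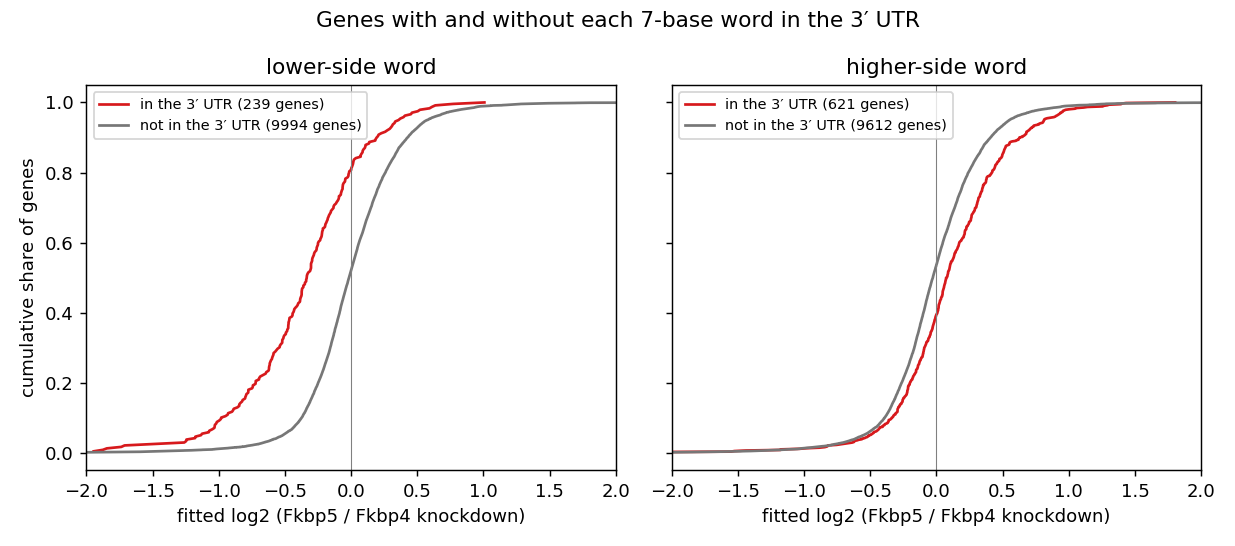
Cumulative share of genes against the fitted log2 difference, for genes with (red) and without (grey) each word in the 3′ UTR, with 239 holders on the left and 621 on the right. The red line of the lower-side word is moved to the left, with a median of −0.33, and that of the higher-side word to the right by less, with a median of 0.08.

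Among the gene lists, the contractile apparatus held the most genes called lower in the Fkbp5 knockdown. Of 53 sarcomere genes tested, 27 were called lower, none was called higher, and 26 did not pass, with a median of −0.77 (−0.76, −0.57 and −0.66 at days 0, 3 and 5). Without the outlying library, 9 were called lower and the median was −0.69. In bulk RNA, fewer differentiated cells and less muscle mRNA per cell cannot be told apart. Actc1, the cardiac actin that embryonic muscle uses, stood at 22.4, 1249 and 1172 CPM in the Fkbp4 knockdown and at 7.09, 332 and 323 CPM in the Fkbp5 knockdown (3.68-fold lower; log2 difference −1.88, SE 0.21, adjusted p = 7.53e-04). Myh3, the embryonic myosin heavy chain, stood at 45.7, 1749 and 3815 CPM against 9.98, 892 and 1805 CPM (2.56-fold lower; log2 difference −1.36, SE 0.24, adjusted p = 0.00707). Both genes were higher at days 3 and 5 than at day 0 in both knockdowns, and the Fkbp5 knockdown was lower on each day. Unc45b, the chaperone that folds muscle myosin together with Hsp90, was 2.65-fold lower with 2.4, 67.7 and 109.6 CPM in the Fkbp4 knockdown and 0.525, 25.2 and 44 CPM in the Fkbp5 knockdown (log2 difference −1.41, SE 0.17, adjusted p = 0.00101). Myh7, the slow myosin, and Myh8, the perinatal myosin, had log2 differences of −2.45 and −2.11, and 27.9% and 18.6% of their words are shared with other genes.

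The position of the control changed with the day. Against the same-day control library, the median of the 53 sarcomere genes was 0.53 for the Fkbp4 knockdown and −0.01 for the Fkbp5 knockdown at day 0, 0.09 and −0.59 at day 3, and 0.13 and −0.67 at day 5. At day 0 it was thus the Fkbp4 knockdown that lay away from the control, with 42 of 53 genes above it, and at days 3 and 5 the Fkbp5 knockdown, with 6 and 5 of 53 genes above it. Myh3 follows this order, with control values of 13.7, 1381 and 3264 CPM. Both sides of each ratio rest on 1 library, and the control libraries are shared, so these are descriptions.

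Of 34 genes of excitation-contraction coupling and of the endplate, 17 were lower and none was higher, with a median of −0.55; 9 were lower without the outlying library. Chrnd, the delta subunit of the muscle acetylcholine receptor, stood at 96.6, 257 and 373 CPM in the Fkbp4 knockdown and 36.8, 77.5 and 163 CPM in the Fkbp5 knockdown (2.71-fold lower; log2 difference −1.44, SE 0.12, adjusted p = 2.47e-04). Its control values of 56.3, 173 and 276 CPM lay between the knockdowns on each day. Chrng, the fetal gamma subunit, was 2.19-fold lower (−1.13, SE 0.12) and Dok7, which activates the endplate kinase MuSK, 2.05-fold lower (−1.04, SE 0.18). Atp2a1, the calcium pump of fast fibres, with 12.4, 204 and 769 CPM in the Fkbp4 knockdown and 4.46, 98.1 and 213 CPM in the Fkbp5 knockdown, parted most at day 5 (−1.48, SE 0.23). Of its words, 20.3% occur in other genes. The sodium channel Scn4a (−1.68) and the potassium channel Kcnj2 (−1.49) were lower too, and Kcnj2 holds the lower-side word in its 3′ UTR.

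Among regulators, 10 of 19 myogenic transcription factors and cofactors were lower and none was higher (median −0.55), and 4 were lower without the outlying library. Myod1, the factor that commits cells to muscle, stood at 75.1, 121 and 98.9 CPM in the Fkbp4 knockdown and 67.8, 112 and 104 CPM in the Fkbp5 knockdown and did not pass (log2 difference −0.07, SE 0.09, adjusted p = 0.674). Myog, the factor of terminal differentiation, stood at 31.5, 323 and 248 CPM against 11.3, 152 and 237 CPM: lower at days 0 and 3, close at day 5, and not called (log2 difference −0.78, SE 0.26, adjusted p = 0.0712). The members called with the largest differences were Rbm24 (−0.88), an RNA-binding protein of muscle splicing, Rbm38 (−0.82), the histone methyltransferase Smyd1 (−0.78), the Tead partner Vgll2 (−0.76), Tead4 (−0.63) and Six4 (−0.59). Smyd1, with 9.42, 136 and 164 CPM in the Fkbp4 knockdown and 2.36, 91.8 and 98.1 CPM in the Fkbp5 knockdown, was lower on each day. Vgll2 stood at 35.7, 150 and 71.1 CPM against 28.1, 66.1 and 46.2 CPM. Its control, at 21.9, 70.5 and 43 CPM, lay nearer the Fkbp5 knockdown. Against the same-day control, the list median was 0.31, 0.08 and 0.07 for the Fkbp4 knockdown, with all 19 genes above it at day 0. For the Fkbp5 knockdown it was −0.15, −0.19 and −0.25.

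Myoblast fusion and adhesion held genes in both directions, with 8 of 26 lower and 2 higher (median −0.02), or 4 and 1 without the outlying library. Mymk, the membrane protein that drives fusion, stood at 34.1, 761.7 and 1022 CPM in the Fkbp4 knockdown and 10.2, 417 and 599 CPM in the Fkbp5 knockdown (2.06-fold lower; log2 difference −1.05, SE 0.18, adjusted p = 0.00636). Cav3, the caveolin of muscle membranes, was 3.31-fold lower (−1.73, SE 0.24), and the junction proteins Jam2 (0.93) and Jam3 (0.64, with 32.2% of words shared) were higher. Of 24 genes of muscle energy metabolism, 5 were lower and 2 higher (median −0.09), or 1 and 0 without the outlying library. Ckm, the muscle creatine kinase, was 2.53-fold lower (−1.34, SE 0.13) while Ckb, the brain-type enzyme, was 1.7-fold higher (0.76, SE 0.20, adjusted p = 0.157 without the outlying library); Ckb differed mainly at day 5, with 70.7, 199 and 103 against 80.1, 282 and 304 CPM. The other gene called higher, named after its values were seen, was Mb, which encodes the oxygen carrier myoglobin, with 2.6, 26.2 and 75.7 CPM in the Fkbp4 knockdown and 0.788, 66.1 and 316 CPM in the Fkbp5 knockdown (log2 difference 1.60, adjusted p = 0.00757): lower at day 0 on few reads and higher at days 3 and 5, with 27.7% of its words shared with other genes. Neither Ckb nor Mb was called without the outlying library. Of 18 genes of the myoblast and progenitor state, 2 were higher (Cd34 and the chemokine receptor Cxcr4, 0.52) and 2 lower (the syndecan Sdc4, −0.52, and M-cadherin Cdh15, −0.36); Cd34 alone of these passed without the outlying library.

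The extracellular matrix ran the other way. Of 67 collagens and matrix genes tested, 33 were higher in the Fkbp5 knockdown and 3 lower, with a median of 0.48 (0.20, 0.55 and 0.43 by day); without the outlying library, 15 were higher and 1 lower. Col1a1, the main chain of type I collagen, stood at 145, 361 and 646 CPM in the Fkbp4 knockdown and 382, 1115 and 1123 CPM in the Fkbp5 knockdown (2.43-fold higher; log2 difference 1.28, SE 0.17, adjusted p = 0.00165). The control, at 164, 574 and 877 CPM, lay between the knockdowns on each day. Col8a1 stood at 74.1, 58.9 and 109 CPM against 134, 196 and 371 CPM (2.71-fold higher; log2 difference 1.44, SE 0.21, adjusted p = 0.00272). The small leucine-rich proteoglycans Aspn, with 4.01, 22.1 and 20.4 CPM in the Fkbp4 knockdown and 11.3, 53.6 and 86.1 CPM in the Fkbp5 knockdown (1.65, SE 0.21), and Dcn (1.07, SE 0.18) were higher on all days. Col27a1 (1.46) and the extracellular superoxide dismutase Sod3 (1.4) were higher as well. The 3 lower genes, named after their values were seen, were Col23a1 (−1.84), Thbs1 (−0.63) and Timp2 (−0.52).

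Genes of other mesenchymal fates did not form 1 pattern. Lpl, the lipoprotein lipase found in adipocytes and in muscle, was 3.18-fold higher with 23.6, 43.8 and 57.2 CPM in the Fkbp4 knockdown and 51, 154 and 215 CPM in the Fkbp5 knockdown (log2 difference 1.67, SE 0.19, adjusted p = 9.22e-04), but no other of 5 tested adipocyte genes was called. Of the 5 defining adipocyte markers, which do not include Lpl, 2 had no read in the 6 libraries. The summed level of these 5 markers was 7.07 to 21 CPM in the Fkbp4 knockdown and 8.63 to 22.3 CPM in the Fkbp5 knockdown. Of 8 smooth muscle and fibroblast genes 2 were higher (Dcn and Col3a1, 0.46), and of 3 osteoblast and chondrocyte genes none was called, or 1 higher and 1 lower in these lists without the outlying library, with Runx2 at −0.48 and Sox9 at −0.19. The 1 tested gene of the immune and endothelial list was not called. Fstl1, a secreted follistatin-like protein, was 1.81-fold higher (0.86, SE 0.15) and Ccn2, a target of TGF-beta and YAP, 2.88-fold higher (1.52, SE 0.44, adjusted p = 0.199 without the outlying library), the latter with 62.9, 9.72 and 13.9 against 64.3, 30.9 and 121 CPM and so alike at day 0. In that list of TGF-beta and YAP targets 4 of 31 genes were higher and 1 lower, or 1 and 1 without the outlying library. The called share was 16.1%, near the 12.8% of all genes tested.

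**Figure D4:**
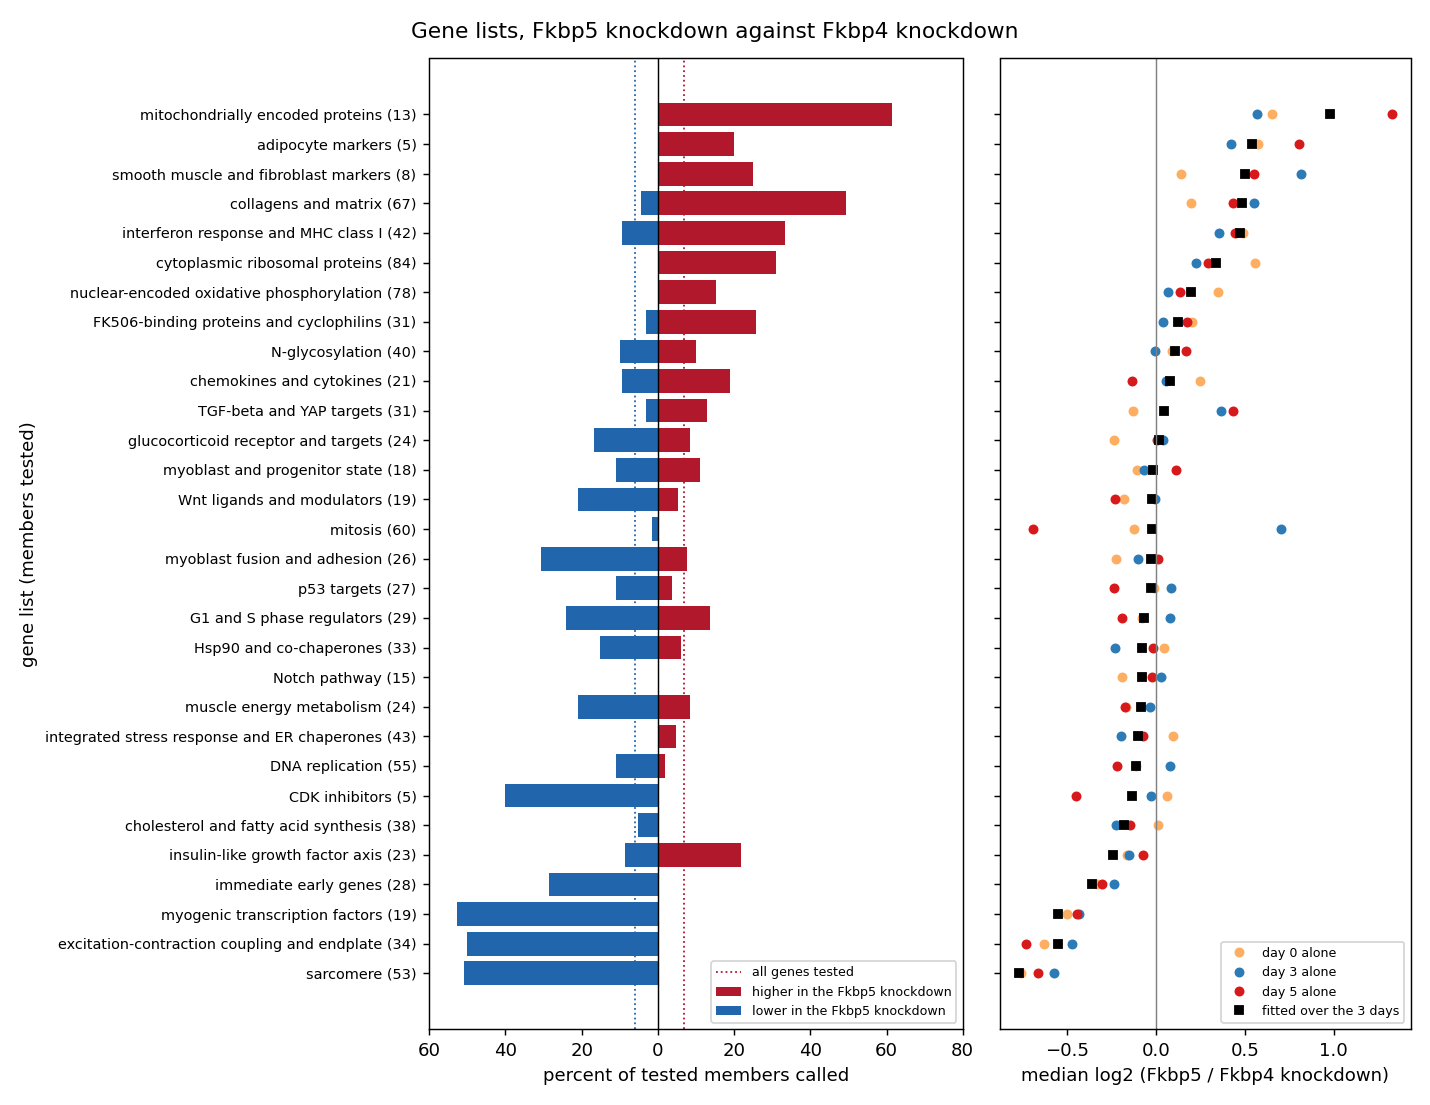
Left, percent of tested members called higher (red, right) or lower (blue, left) in the Fkbp5 knockdown for each gene list with at least 5 members tested, with dotted lines at 6.83% and 6.02%, the shares over all genes. Right, median log2 difference of each list, fitted (squares) and at single days (points): the lists of the sarcomere, of excitation-contraction coupling and of myogenic transcription factors lie on the negative side on each day, collagens and matrix on the positive side, and mitosis changes side between days 3 and 5.

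Cdk4, the kinase of the series title, did not differ detectably in mRNA. It stood at 684, 342 and 240.1 CPM in the Fkbp4 knockdown and 739, 316 and 301 CPM in the Fkbp5 knockdown (log2 difference 0.11, SE 0.12, adjusted p = 0.575), and the order turned at day 3. Cdk6, its relative that also pairs with D-type cyclins, stood at 99.8, 68.1 and 46.7 CPM against 33.1, 34.8 and 19.9 CPM, 2.4-fold lower in the Fkbp5 knockdown (log2 difference −1.26, SE 0.13, adjusted p = 6.82e-04), with the control at 75.1, 55.4 and 44.2 CPM. Its 3′ UTR holds the lower-side word 2 times. The cyclins Ccnd1 (346, 95.3 and 81.4 against 269, 104 and 67.7 CPM; log2 difference −0.17, SE 0.12, adjusted p = 0.409) and Ccnd3 (65.1, 326 and 267 against 73, 381 and 320.4 CPM; log2 difference 0.22, SE 0.09, adjusted p = 0.131) were not called. Rb1, the pocket protein that these kinases phosphorylate, was 1.41-fold lower (log2 difference −0.50, SE 0.11, adjusted p = 0.0146 and 0.0625 without the outlying library), and Cdkn1a, the Cdk inhibitor that climbs in differentiating myoblasts, 1.56-fold lower with 239, 1441 and 1647 CPM in the Fkbp4 knockdown and 185, 916 and 877 CPM in the Fkbp5 knockdown (log2 difference −0.64, SE 0.12, adjusted p = 0.0097 and 0.0619 without the outlying library).

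Of 29 regulators of G1 and S phase, 7 were lower and 4 higher, and without the outlying library these counts were 3 and 1. E2f2, an activator of S phase genes, stood at 41.3, 119 and 90.3 CPM in the Fkbp4 knockdown and 12.6, 47.9 and 28.5 CPM in the Fkbp5 knockdown (2.88-fold lower; log2 difference −1.53, SE 0.12, adjusted p = 1.79e-04), with the control between them on each day. E2f4 (−0.51), a repressor that acts with pocket proteins, and Myc (−0.52) were lower, and Tfdp2 (0.81), a partner of E2F factors, and the repressor E2f8 (0.59) higher. Of the 5 Cdk inhibitors tested, 2 were lower, and 1 without the outlying library: Cdkn1a and Cdkn1c (0.401, 52.3 and 8.21 against 0.263, 6.13 and 2.19 CPM; −2.64, SE 0.41), and 27.2% of the words of Cdkn1c occur in other genes. Among 55 genes of DNA replication 6 were lower and 1 was higher (Rpa3, 0.81), a called share of 12.7% beside 12.8% of all genes tested. The lower ones included the maintenance methyltransferase Dnmt1 (−0.66) and the helicase subunits Mcm4 (−0.57) and Mcm7 (−0.50). Without the outlying library none was lower.

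Mitosis genes lay on opposite sides at days 3 and 5. Among 60 genes, 1 was called, the anaphase-promoting complex activator Cdc20 (log2 difference −0.79, SE 0.21, adjusted p = 0.036 and 0.15 without the outlying library), but 41 of 60 were lower at day 0, 56 of 60 were higher at day 3 and 58 of 60 were lower at day 5, with medians of −0.12, 0.70 and −0.69. Over all genes tested the medians were −0.03, 0.01 and 0.00. Mki67, the proliferation antigen, named after its values were seen, stood at 185, 29 and 43.8 CPM in the Fkbp4 knockdown and 133, 52 and 20.4 CPM in the Fkbp5 knockdown. Against the same-day control the mitosis median was 0.46 in the Fkbp5 knockdown and −0.17 in the Fkbp4 knockdown at day 3, and −0.19 and 0.49 at day 5. No mitosis gene was called without the outlying library, and each of these values rests on single libraries, so the turn between days has no replicate check.

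**Figure D5:**
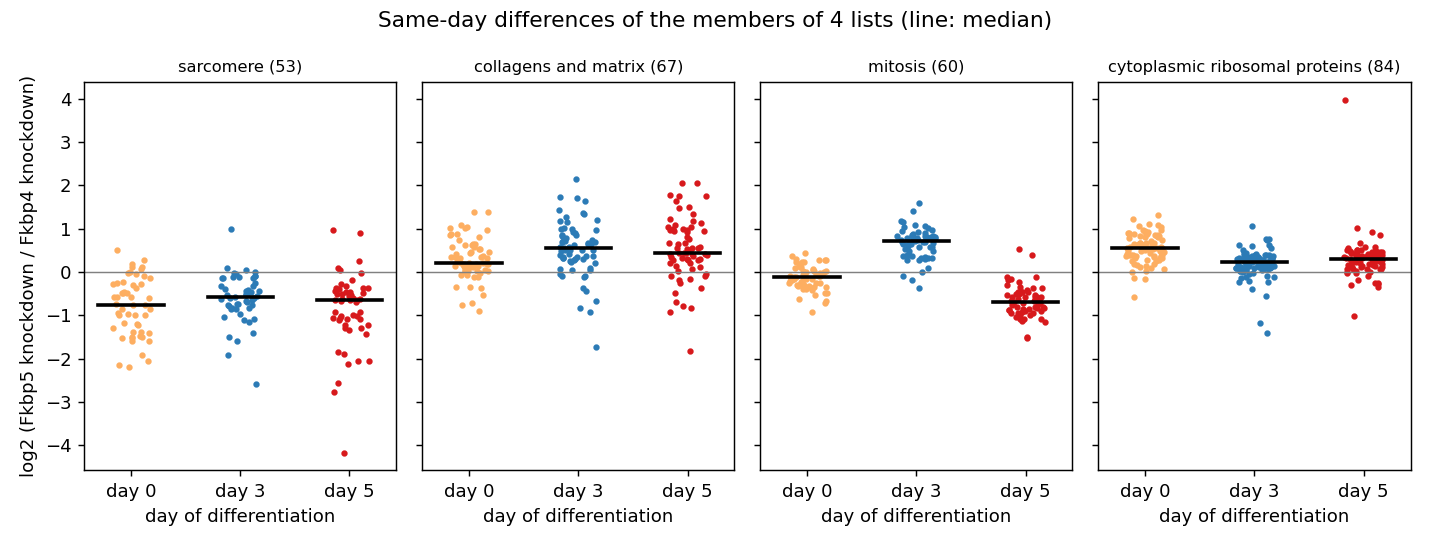
Same-day log2 ratios (Fkbp5 knockdown over Fkbp4 knockdown, 0.5 CPM added) of each tested member of 4 lists, with the median as a line. The median of the sarcomere genes lies below 0 and those of the ribosomal proteins and matrix genes above 0 on each day, while the mitosis genes have a median of 0.70 at day 3 and −0.69 at day 5.

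In the family of the targets, 8 of 31 FK506-binding proteins and cyclophilins were higher and 1 was lower, and without the outlying library these counts were 3 and 1. These counts include Fkbp4 and Fkbp5, the knockdown targets. Fkbp11, an isomerase of the secretory pathway, stood at 36.1, 14 and 22.1 CPM in the Fkbp4 knockdown and 69.1, 28.8 and 32.9 CPM in the Fkbp5 knockdown (1.8-fold higher; log2 difference 0.85, SE 0.12, adjusted p = 0.00282). Fkbp7 (0.54) and the cyclophilin Ppic (0.53), both of the endoplasmic reticulum, and the spliceosomal cyclophilin Ppih (0.52, with 41.2% of words shared) were also higher.

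Of 33 genes of Hsp90 and its co-chaperones 5 were lower and 2 higher (median −0.08), or 4 and 0 without the outlying library. Besides Unc45b, the lower ones were Hsph1, a nucleotide exchange factor of Hsp70, with 109, 122 and 127 CPM in the Fkbp4 knockdown and 69.3, 78.6 and 84.5 CPM in the Fkbp5 knockdown (log2 difference −0.62, SE 0.09, adjusted p = 0.00282), its relative Hspa4 (−0.40), Dnajc7 (−0.52) and Tomm34 (−0.49), while Nudcd2 was higher (0.47). Of 24 genes of the glucocorticoid receptor and its targets, 2 were higher and 4 lower, Fkbp5 among the lower, or 1 and 3 without the outlying library. Hsd11b1, which regenerates active glucocorticoid, had 0, 1.77 and 8.84 CPM in the Fkbp4 knockdown and 1.31, 6.36 and 23.4 CPM in the Fkbp5 knockdown (1.66, SE 0.34, adjusted p = 0.0978 without the outlying library), and Ddit4, a target that restrains mTOR signalling, 30.5, 38.5 and 27.6 CPM against 49.4, 70.4 and 52.8 CPM (0.84, SE 0.16). The control of Hsd11b1, at 0.442, 7.81 and 20.5 CPM, lay near the Fkbp5 knockdown at days 3 and 5. Errfi1 (−0.73) and the glutamine synthetase Glul (−0.68, with 20.4% of words shared) were lower, as was Cdkn1a, which is also on this list.

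In the list of interferon response and antigen presentation by MHC class I, 14 of 42 genes were higher and 4 lower (median 0.47), and without the outlying library the counts were 4 and 1. Tap2, a subunit of the peptide transporter of this pathway, stood at 6.21, 12.4 and 10.3 CPM in the Fkbp4 knockdown and 11, 24.3 and 20.6 CPM in the Fkbp5 knockdown (1.92-fold higher; log2 difference 0.94, SE 0.16, adjusted p = 0.00487), and the control at 4.86, 9.47 and 8.22 CPM lay below both. Bst2, which tethers virions to the cell, was 2.2-fold higher (1.14, SE 0.23, adjusted p = 0.0583 without the outlying library) and Irf9, a subunit of the interferon-activated transcription factor, 1.75-fold higher (0.80, SE 0.20, adjusted p = 0.138 without the outlying library). The 4 lower members were all guanylate-binding proteins: Gbp10 (−2.35, named after its values were seen), Gbp9, with 1.2, 11.3 and 44 CPM in the Fkbp4 knockdown and 0, 4.32 and 8.1 CPM in the Fkbp5 knockdown (−2.10, SE 0.32, adjusted p = 0.0751 without the outlying library), Gbp4 (−1.8) and Gbp8 (−1.03). Of this list, 14 members have over 20% of their words in other genes, Gbp10 and Gbp8 among them, so reads may be split there.

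Immediate early genes, which respond to growth factor signals within minutes, were lower in 8 of 28 cases and higher in none (median −0.36), and in 2 cases without the outlying library. Dusp5 (−0.99, SE 0.17) and Dusp6 (−0.62, SE 0.15, adjusted p = 0.118 without the outlying library), phosphatases that restrain ERK and follow its activity, had 58.1, 8.13 and 10.9 against 26.3, 5.45 and 5.26 CPM and 77.7, 38.9 and 38.5 against 67.5, 19.5 and 22.3 CPM. The transcription factors Egr3 (−1.4) and Fosl1 (−0.72) and the mRNA decay factor Zfp36 (−0.70) were lower as well. Of the words of Fosl1 54.5% and of those of Dusp5 21.2% occur in other genes, so their reads may be split. In the insulin-like growth factor axis, 5 of 23 genes were higher and 2 lower, or 1 and 1 without the outlying library. Igf1 had 0.801, 8.13 and 15.1 CPM in the Fkbp4 knockdown and 1.58, 19.1 and 23.2 CPM in the Fkbp5 knockdown (0.90, SE 0.19), and the binding proteins Igfbp7 (1.01) and Igfbp6 (0.48) and the protease Htra1 (0.63) were higher. The control of Igf1, at 2.43, 21.8 and 32.2 CPM, lay above both knockdowns on each day. Igf2, which climbs in differentiating myoblasts, had 1.8, 136 and 269.7 CPM in the Fkbp4 knockdown and 1.31, 60.2 and 129 CPM in the Fkbp5 knockdown (−1.09, SE 0.11), but 63.1% of its words occur in other annotated genes.

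Of 84 cytoplasmic ribosomal protein genes 26 were higher and none lower (median 0.34), and 7 were higher without the outlying library. Rpl22l1, a paralog of Rpl22 with few shared words, stood at 179, 115 and 103 CPM in the Fkbp4 knockdown and 318, 194 and 194 CPM in the Fkbp5 knockdown (1.78-fold higher; log2 difference 0.83, SE 0.09, adjusted p = 6.82e-04), but 58 of the 84 share over 20% of their words. Of 78 nuclear-encoded genes of oxidative phosphorylation 12 were higher and none lower (median 0.20), among them Ndufa1 (1.11, SE 0.16), Atp5l (0.69) and Atp5e (0.61), and 4 were higher without the outlying library. Cox6a2, a muscle form of a cytochrome c oxidase subunit that was counted with the genes of muscle energy metabolism, was lower (−0.98). Gene length moved with these differences: in 4 equal groups of genes, from the shortest to the longest exon length, the median was 0.16, 0.00, −0.06 and −0.09, 10.5%, 7.27%, 5.27% and 4.27% were called higher, and 2.46%, 5.77%, 7.36% and 8.51% lower. Its part in the results on short genes was not tested.

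Mitochondrially encoded proteins were higher in 8 of 13 cases (median 0.98, at 0.66, 0.57 and 1.33 by day), and in 4 cases, with a median of 0.50, without the outlying library. Of the 13, 7 share over 20% of their words with other genes, the called mt-Nd3, mt-Nd4l and mt-Nd4 among them, so reads may be split there. Cytochrome b, mt-Cytb, stood at 3546, 5672 and 6886 CPM in the Fkbp4 knockdown and 6029, 10905 and 12209 CPM in the Fkbp5 knockdown (1.79-fold higher; log2 difference 0.84, SE 0.11, adjusted p = 0.00172), and mt-Nd2 at 1299, 2009.7 and 2208 CPM against 2599.5, 3930.2 and 3998 CPM (0.94, SE 0.12). Both genes were higher on each day. The values of mt-Nd3 and mt-Nd4l come from 1 library: they had at most 2.95 and 3.18 CPM in the other Fkbp5 knockdown libraries and 595 and 992 CPM in that of day 5. Likewise mt-Co3 had 11120 CPM there and at most 34.8 CPM in the other libraries. At day 5 of the Fkbp4 and Fkbp5 knockdowns, mt-Co2 had 4570 and 11633 CPM and mt-Atp6 1331 and 9114 CPM. There mt-Atp8 had 746 and 1872 CPM, and its log2 ratio is the day 5 median of 1.33. In the other libraries, mt-Co2, mt-Atp6 and mt-Atp8 had at most 33.6, 31.1 and 5.52 CPM. Reads of all these genes count in the 10.1% that set the outlying library apart.

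A test of whether the difference between the knockdowns changed from day 0 to days 3 and 5 had 2 residual degrees of freedom. It called 4 of 13372 genes (0.0299%), with 872 at an unadjusted p under 0.05. The 4 were Gm10123, Gm5786, Rpl31-ps14 and Ppia, which encodes cyclophilin A, and each shares over 20% of its 31-base words with other genes. Ppia had 16.4, 159 and 53.7 CPM in the Fkbp4 knockdown and 1442, 122 and 98.8 CPM in the Fkbp5 knockdown, so the libraries of day 0 stood far apart and those of days 3 and 5 did not.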

How the data were processed

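Each library came as a deposited table of raw counts (featureCounts reads on each Ensembl gene), not normalised by the authors. Per the submitters' processing notes, CASAVA 1.8, HISAT2 2.0.2, Subread and featureCounts 1.4.6 were used with mm10. The annotation release, strand setting and handling of reads with several alignments are not given in the sources used here. Of 47728 genes, 47309 matched GENCODE M21 (GRCm38), which gave symbols, positions and 3′ UTRs. Counts of all 9 libraries were fitted with edgeR 4.0.16 in R 4.3.3 (filterByExpr, TMM, quasi-likelihood test, terms for genotype and day, 4 residual degrees of freedom), and p-values were adjusted by Benjamini-Hochberg over all genes tested. Libraries were grouped by their labels and paired by day. The controls enter the spread and the day term only. Standard errors were calculated back from the quasi-likelihood F. Single-day ratios used normalised CPM plus 0.5. Total counts of 3932372 to 5568486 reads limit the precision of genes with few reads. The fit was tested on simulated data.

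Reads of a gene are called uncertain where over 20% of its 31-base words occur in another gene. The 3′ UTR was that of the longest coding transcript of a gene, and words were ranked by the shift of the mean log2 difference of their holders over its standard error. Genes named in any case were Fkbp4, Fkbp5, Cdk4, Cdk6, Ccnd1, Ccnd3, Rb1, Cdkn1a, Myod1, Myog and Myh3. To these were added the 12 called protein-coding genes, mitochondrially encoded ones excepted, with the largest difference in each direction and up to 6 called members of each list (2 with the largest difference where none was called), each with 5 CPM or more on average over the 6 libraries and a difference of 1 sign in all 3 pairs, and up to 4 genes in each direction of the change with day. Some genes that this rule chose are not reported here. The members, lists and rules were chosen with earlier results of these data known. Alternatives were DESeq2 1.42.0, voom of limma 3.58.1, other size factors, other filters, a fit of the 6 knockdown libraries, a fit without the day term, gene classes left out, and each library or day left out.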

Additional observations from a re-analysis of the deposited data

Results flagged for a closer look

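The change of the difference between the knockdowns from day 0 to days 3 and 5 passed the test for 4 genes, by edgeR's quasi-likelihood test of the interaction. The log2 change was 9.07 for Gm10123, 6.27 for Gm5786, −8.49 for Rpl31-ps14 and −6.32 for Ppia. Gm10123 had 497 CPM in the Fkbp4 knockdown and 395 CPM in the control at day 0, and at most 1.24 CPM in the other 7 libraries. Between 20.9% and 100% of the words of these genes occur in other genes, so their reads may be split with near-identical copies.

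For some lists the median difference at day 0 lay on the other side of 0 from days 3 and 5; these differences between days were not tested. At day 0 it was 0.045 for Hsp90 and co-chaperones, −0.24 for the glucocorticoid receptor and its targets, 0.062 for CDK inhibitors, 0.095 for the integrated stress response and endoplasmic reticulum chaperones, 0.014 for cholesterol and fatty acid synthesis, and −0.13 for TGF-beta and YAP targets. The mitosis list lay at 0.70 at day 3 and at −0.69 at day 5, and this turn was not tested either. With 1 library per day, a library that stands apart and a day that stands apart cannot be told apart.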

How the results depend on the processing

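Against 1650 genes called, the 6 knockdown libraries alone gave 961, leaving out day 0 gave 806 and leaving out day 5 gave 250. The samples were paired by day, as the labels give it, and a fit without this pairing block (no day term) called 4 genes. With single libraries left out, the count ran from 487 (without the Fkbp5 knockdown of day 5) to 2106 (without that of day 3); without the Fkbp4 knockdown of day 0, 3 or 5 it was 968, 790 and 539. DESeq2 called 1107 genes, voom 1882 and the fit without a filter on low counts 2385 of 23919. Added after seeing the data, leaving out genes that share words gave 1956 calls and leaving out holders of either 3′ UTR word 1339. The change of the difference with the day was called for 2 genes with voom and for 8 without mitochondrially encoded genes, against 4. Of 147 called genes chosen by the naming rule, none reversed under the 22 alternatives tried, 37 passed in each alternative with a day term that tested them, and 72 passed without the Fkbp5 knockdown of day 5. Of the genes given with an SE that passed without the last-named library, Dok7 lost its call without day 3, Dcn, Fstl1, Tap2, Ndufa1, Ccl7 and Pmaip1 without day 5, Ddit4 without day 5 or the Fkbp4 knockdown of that day, Cdkn1c without either knockdown of day 3, Igf1 without either of these libraries or without day 3 or 5, and Dusp5 without day 0, day 5 or the Fkbp5 knockdown of day 0; Myo7b, given with its adjusted p, lost it without day 0. Of 659 list medians recomputed, 25 moved by more than their spread over days, 18 of them with a library or day left out. A fold change of a gene with few reads in a library is limited by depth.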

Other observations

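Of 19 Wnt ligands and modulators 4 were lower and 1 higher, or 1 and 0 without the outlying library, the Fkbp5 knockdown of day 5; besides Wnt7b, Dkk3 (−1.55, SE 0.36, adjusted p = 0.111 without the outlying library) and Wnt10a (−0.67, SE 0.19, adjusted p = 0.221 without the outlying library) were lower. Of 21 chemokines and cytokines 4 were higher and 2 lower, or 1 and 1 without that library. Ccl7, a monocyte chemoattractant, stood at 32.5, 8.66 and 10.3 CPM in the Fkbp4 knockdown and 60.7, 14.8 and 23.4 CPM in the Fkbp5 knockdown (0.95, SE 0.16), and Ccl8 (1.24), Csf1 (0.74) and Cxcl12 (0.67) were higher too. Cxcl13, a B cell chemoattractant, was lower with 4.01, 17 and 23.8 CPM in the Fkbp4 knockdown and 2.1, 5.68 and 6.79 CPM in the Fkbp5 knockdown (−1.57, SE 0.28, adjusted p = 0.0729 without the outlying library), as was the surface protein Cd200 (−0.83). The control of Cxcl13, at 0.442, 6.63 and 5.56 CPM, lay below both knockdowns at day 0 and near the Fkbp5 knockdown at days 3 and 5.

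Of 27 p53 targets 3 were lower and 1 higher, or 2 and 1 without the outlying library. The called share was 14.8%, near the 12.8% of all genes tested. Trp53inp1 stood at 19, 32.5 and 37.5 CPM in the Fkbp4 knockdown and 33.9, 117 and 68.1 CPM in the Fkbp5 knockdown (1.23, SE 0.19), while Pmaip1, a BH3-only protein, was lower (−0.72, SE 0.12), as was Plk3 (−0.62). Of 43 genes of the integrated stress response and of endoplasmic reticulum chaperones 2 were higher, Ddit4 and the lectin chaperone Canx (0.51, SE 0.10, adjusted p = 0.0527 without the outlying library), and 1 was higher without that library. Of 38 genes of cholesterol and fatty acid synthesis 2 were lower, among them the sterol enzyme Lss (−0.71), and none was called without the outlying library. The called shares of these lists, 4.65% for the stress response and chaperones and 5.26% for cholesterol and fatty acid synthesis, lay below the 12.8% of all genes tested. Of 15 Notch pathway genes edgeR called none, and the largest differences were those of Jag2 (−0.48, adjusted p = 0.0699) and Lfng (0.39, adjusted p = 0.166). The activin subunit Inhba (0.95) and Fstl3 (0.85, with 46.7% of words shared), which binds activin, were higher, and Amotl2, a YAP target, was lower (−0.42). Inhba, Canx and Tfdp2 hold the higher-side word in their 3′ UTR.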
